A study of Mus musculus with 6 samples.

Results

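Expression of 9 complement genes was followed in the auditory cortex of C57 mice with and without overexpression of the Wnt ligand Wnt3, a secreted signalling protein. The genes were taken by symbol from the deposited tables and cover the recognition subunits C1qa, C1qb and C1qc, the proteases C1ra and C1s1, the central components C4b and C3, the inhibitor Serping1 and the receptor C3ar1. All 9 were found among the 50559 listed genes and among the 22360 with enough counts to be tested. The groups were 3 libraries labelled as WNT3 control and 3 labelled as WNT3 overexpressing, all C57 and all labelled auditory cortex. Age, the way in which Wnt3 was overexpressed, what the control mice received and whether each library came from its own animal are absent from the labels, so the p-values rest on the spread among these libraries, which may be technical.

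Complement is a cascade of plasma and tissue proteins that tags surfaces for removal. In its classical arm, C1q binds a target and activates the proteases C1r and C1s, which cut C4 and C2 and so lead to cleavage of C3. C1 inhibitor, the product of Serping1, blocks C1r and C1s, and the C3a receptor senses a fragment released from C3. In the brain, C1q is made mainly by microglia and C4 by several cell types including astrocytes, and the classical arm is known for its part in the removal of synapses.

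Total counts per library ranged from 42614588 to 71803617. Wnt3 stood at 2.70, 1.91 and 1.74 CPM (counts scaled to library size with TMM factors) in controls 1 to 3 and at 98.8, 7.45 and 8.71 CPM in overexpression libraries 1 to 3, so that every overexpression library lay above every control and library 1 far above the other two. Control 2 stood apart from the remaining libraries. Its log2 CPM correlated with theirs across the tested genes at 0.955 to 0.964, against 0.989 to 0.994 among the remaining 5, and its mitochondrially encoded genes summed to 26361 CPM, against 12671 to 15450 CPM elsewhere. The extraction protocol speaks of striatum, unlike the tissue label. Cortical excitatory neuron markers summed to 1112 to 1244 CPM and striatal projection neuron markers to 227 to 371 CPM over the 6 libraries, and no marker of either list was at 0 in all libraries.

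The 9 genes lie on 4 chromosomes of mm10 (GENCODE M21 coordinates). The C1q genes form a cluster on the minus strand of chromosome 4, with C1qb at chr4:136880129-136886187, C1qc at chr4:136889804-136893065 and C1qa at chr4:136895917-136898803. C1ra, at chr6:124512405-124523443 on the plus strand, and C1s1, at chr6:124530345-124542359 on the minus strand, are 6901 bases apart and converge. C3ar1 is also on chromosome 6, at chr6:122847138-122856161 on the minus strand. C4b, at chr17:34728380-34743882, and C3, at chr17:57203970-57228136, lie on the minus strand of chromosome 17, and Serping1, at chr2:84765387-84775444, on the minus strand of chromosome 2. A transcript model of the other strand, Gm16567, overlaps C1s1, and since it is unknown whether counting used strand, reads of the pair cannot be told apart.

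Near copies limit how far reads can be assigned to C4b, C1ra and C1s1. Of the 50-base windows in the longest C4b transcript, 35.2% occur letter for letter in C4a, its neighbour 65209 bases away. The same share was 48% for C1ra against C1rb and 24.3% for C1s1 against C1s2, whereas the C1q genes shared no such window with each other and C3 shared none with C4b. Counts of C4b, C1ra and C1s1 are therefore uncertain to the extent that the authors' counting split or dropped shared reads.

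The sequences just upstream of C1qb, C1s1 and C3 are shown because these 3 genes stand for the different patterns described below, C1qb for genes highest in a single control library, C1s1 for a gene higher in each overexpression library and C3 for a gene near the detection limit. They were read from the RefSeq promoter table (GRCm38.p6, the mm10 assembly), which held 6 of the 9 genes, and cover bases upstream of the outermost annotated start, in the direction of the gene (the minus strand in each case). Capitals mark matches, on either strand, to a PU.1 core (AGGAAG) or a C/EBP motif (TTGCNNAA).
C1qb, chr4:136886201-136886450: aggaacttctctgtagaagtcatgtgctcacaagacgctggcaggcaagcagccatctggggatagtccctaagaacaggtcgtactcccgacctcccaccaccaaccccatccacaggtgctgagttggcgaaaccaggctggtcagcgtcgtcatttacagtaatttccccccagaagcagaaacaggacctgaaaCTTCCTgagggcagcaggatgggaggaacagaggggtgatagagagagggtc
C1s1, chr6:124542393-124542609: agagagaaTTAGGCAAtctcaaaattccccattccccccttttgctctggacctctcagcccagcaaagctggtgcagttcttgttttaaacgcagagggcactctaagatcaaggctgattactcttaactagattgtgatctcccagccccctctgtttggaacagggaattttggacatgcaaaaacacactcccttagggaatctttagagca
C3, chr17:57228137-57228386: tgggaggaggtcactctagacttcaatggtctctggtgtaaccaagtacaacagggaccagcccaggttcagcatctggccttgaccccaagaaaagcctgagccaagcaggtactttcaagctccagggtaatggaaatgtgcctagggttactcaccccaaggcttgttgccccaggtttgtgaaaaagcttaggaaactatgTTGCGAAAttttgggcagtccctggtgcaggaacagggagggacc

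The C1qb window held 1 PU.1 core match, which begins 52 bases upstream of the RefSeq start, and 29.5% of all upstream windows of 250 bases hold such a match. The C3 window held 1 C/EBP match, beginning 45 bases upstream, and the C1s1 window held 1 beginning 242 bases upstream of the RefSeq start used. That window has 217 bases because the 33 nearest that start, which lie within the annotated gene, were left out. A C/EBP match occurs in 9.56% of all windows of 250 bases and in 8.68% of those of 217 bases. Neither the STAT motif TTCNNNGAA (7.02% of windows of 250 bases, 6.2% of those of 217) nor the interferon-stimulated response element (2.98% and 2.6%) was in any of the 3 windows. A C3ar1 window of 246 bases, not shown, was searched as well and held no match to any of these motifs. C1qa, C4b and Serping1 had no entry, and C1qc and C1ra, with 99 and 34 bases left, were not searched. No marked match overlapped another. These matches describe letters in a window and are not evidence of binding.

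The levels of the genes, compared per length in deposited TPM, spanned a wide range. In controls, C1qa was at 71.7 ± 28.0 TPM, C1qb at 69.3 ± 24.6 TPM and C1qc at 58.8 ± 13.2 TPM (SD, n = 3). C4b followed at 6.76 ± 4.29 TPM, and its 3 control values all lay below the lowest C1qc value. C1ra (2.91 ± 0.61 TPM), Serping1 (2.19 ± 0.72 TPM), C1s1 (2.01 ± 0.73 TPM) and C3ar1 (1.40 ± 0.60 TPM) came next (SD, n = 3). C3 was lowest, listed at 0 TPM in control 1 and at 0.115 and 0.383 TPM in controls 2 and 3. Neighbours in this order overlapped in their control ranges, except C1qc with C4b and C3ar1 with C3. By mean TPM over all libraries, C1qa ranked 1887 and C3 20709 among the 22360 tested genes.

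**Figure D1:**
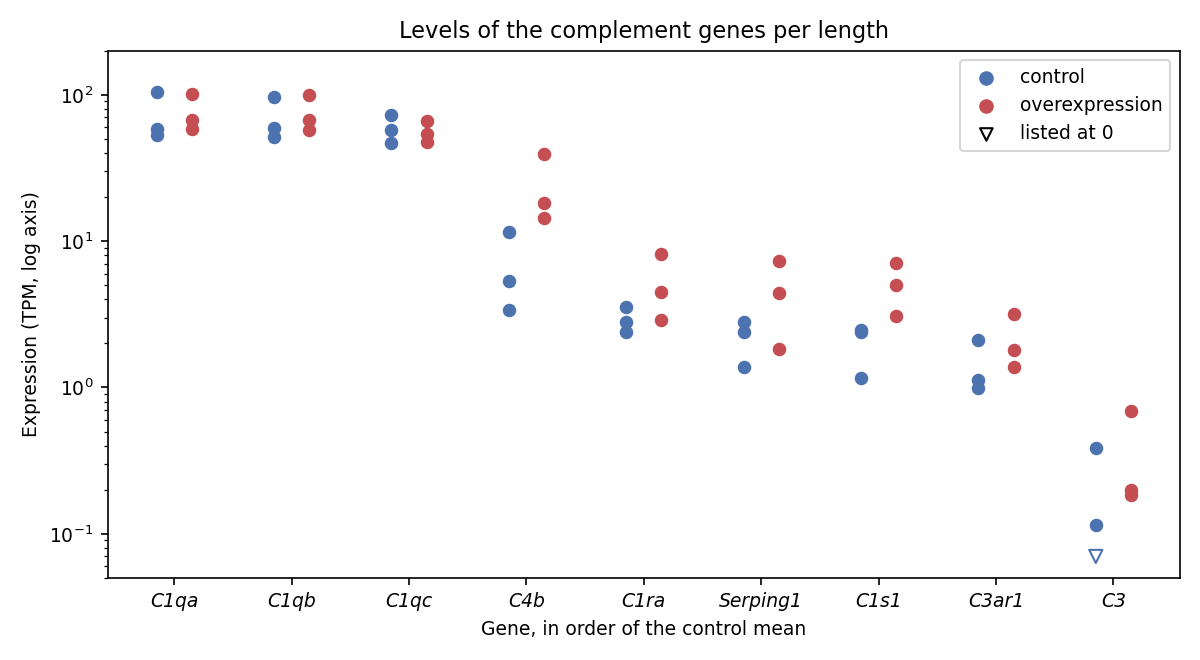
Deposited TPM of the 9 complement genes on a log axis, with 1 point per library (blue, 3 controls; red, 3 overexpression libraries) and genes in the order of their control mean. The C1q genes lie between 46.5 and 103.9 TPM in all libraries, C4b ranges from 14.5 to 39.1 TPM in overexpression and from 3.36 to 11.6 TPM in control, and the open triangle marks C3 in control 1, listed at 0.

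The order in overexpression libraries differed in the gap below C4b. C4b was at 24.0 ± 13.3 TPM (SD, n = 3), and its lowest value there, 14.5 TPM, lay above the highest C1ra value, 8.19 TPM, whereas in controls the ranges of these genes overlapped. C1ra (5.17 ± 2.73 TPM), C1s1 (5.06 ± 2.01 TPM) and Serping1 (4.55 ± 2.77 TPM) overlapped one another (SD, n = 3). The ratio of C1qa to C4b, both in TPM, came to 9.94, 30.9 and 5.02 for controls 1 to 3, and to 2.59, 4.05 and 3.69 for overexpression libraries 1 to 3. Each overexpression ratio lay below each control ratio.

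None of the 9 complement genes was called by edgeR at 0.05 after Benjamini-Hochberg adjustment over all genes, and their adjusted p ran from 0.822 to 0.885. The same test called 0 of all tested genes (0%), and 4.65% of them had an unadjusted p under 0.05. Wnt3, the overexpressed gene, also had an adjusted p of 0.822 in edgeR, with a log2 fold change of 4.18 and an unadjusted p of 0.00328. The lack of a call therefore does not show that a gene was unchanged. Among the 9, C4b and C1s1 had an unadjusted p under 0.05, both higher in overexpression, a call that 1.86% of all tested genes met in that direction. C4b and C1s1 were also the members with every overexpression library above every control in CPM, as were 5.89% of tested genes. The fitted log2 fold change was above 0 for 6 of the 9 and below 0 for 3, against 49.3% of tested genes above 0. The median of the 9 was 0.58, against -0.007 over all tested genes, and it was 0.04 without overexpression library 1. The genes were chosen with results of these data known, so neither the counts nor the median are evidence about the list.

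**Figure D2:**
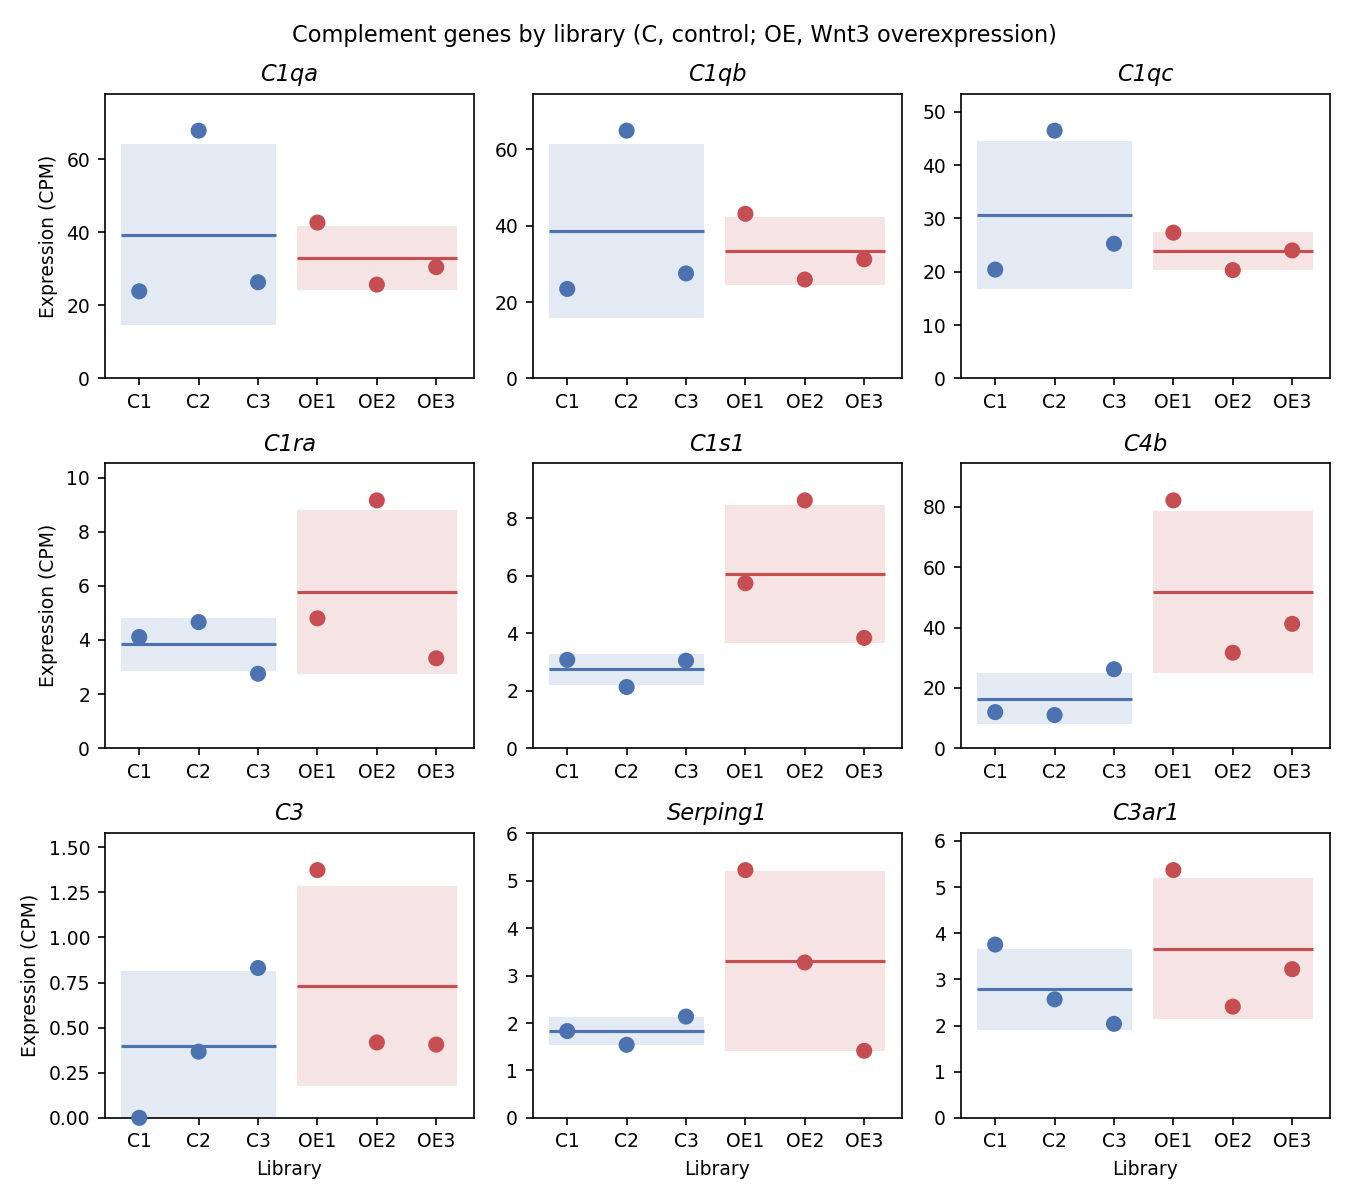
Expression of each of the 9 complement genes in CPM, with 1 point per library, a line at the group mean and a band of 1 SD around it (bands stop at 0), on axes that start at 0. The C1q genes are highest in control 2, the red points of C4b and C1s1 all lie above the blue ones, and C3, Serping1 and C3ar1 are highest in overexpression library 1.

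The C1q subunits, whose 3 chains assemble into the recognition molecule of the classical arm, were lower on average in overexpression by CPM, a difference that turned without control 2. C1qa was at 23.9, 67.9 and 26.3 CPM in controls 1 to 3 and at 42.7, 25.7 and 30.5 CPM in overexpression libraries 1 to 3. Control 2 was the highest library and control 1 the lowest, with all overexpression libraries between them. C1qb was at 23.4, 64.9 and 27.5 CPM in the controls and at 43.1, 25.9 and 31.2 CPM in overexpression, the same order of libraries at the top. C1qc was at 20.4, 46.5 and 25.3 CPM in the controls and at 27.3, 20.3 and 24.0 CPM in overexpression, again with groups that overlapped.

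Log2 fold changes were -0.26 ± 0.41 for C1qa, -0.21 ± 0.39 for C1qb and -0.36 ± 0.31 for C1qc (SE), within 1 SE of 0 for C1qa and C1qb and slightly beyond it for C1qc. Without control 2 they turned to 0.39, 0.39 and 0.07. In deposited TPM, the group means of C1qa and C1qb also had the opposite order, at 75.8 ± 22.6 TPM for C1qa and 75.3 ± 22.2 TPM for C1qb in overexpression (SD, n = 3). Limma on log2(TPM + 1) gave log2 differences of 0.11 for C1qa and 0.13 for C1qb. C1qc stayed lower on that scale, at -0.06. The direction of C1qa and C1qb therefore depended on the scale and on a single library, and that of C1qc on a single library. The ratio of TPM to CPM, taken per gene relative to its mean over libraries, had a median of 0.715 in control 2 and of 1.03 to 1.11 in the other libraries, and its part in the result was not tested.

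C1qa and C1qb kept close proportions to each other in every library. C1qb was 0.963, 0.937 and 1.02 times C1qa in controls 1 to 3, in TPM, and 0.990, 0.987 and 1.003 times C1qa in overexpression libraries 1 to 3. C1qc varied more, at 0.876, 0.700 and 0.980 times C1qa in the controls and 0.652, 0.807 and 0.801 times C1qa in overexpression. Its share was lowest in overexpression library 1 and control 2, the libraries with the most C1qa.

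Resident microglia markers were compared with C1q because C1q is known to be made there. The 13 markers, all tested and none at 0, summed to 395, 540 and 449 CPM in controls 1 to 3 and to 500, 304 and 400 CPM in overexpression libraries 1 to 3. Of the 13, 11 were fitted lower and 2 higher in overexpression (1 with an unadjusted p under 0.05), where 49.3% of all tested genes were fitted higher and 4.65% had such a p, and the median of their log2 fold changes was -0.27. The summed C1q level was 0.171, 0.332 and 0.176 times the summed marker level in the controls and 0.226, 0.237 and 0.214 times in overexpression. All overexpression ratios lay above those of controls 1 and 3 and below that of control 2. In bulk tissue, fewer cells of a type and less RNA per cell cannot be told apart.

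**Figure D3:**
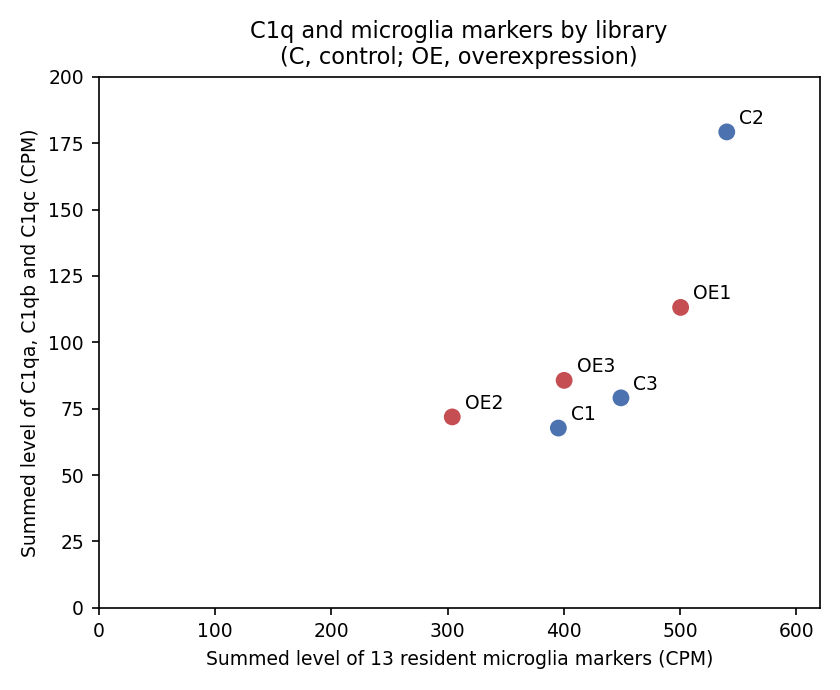
Summed level of C1qa, C1qb and C1qc against the summed level of 13 resident microglia markers, both in CPM, with 1 labelled point per library (blue, control; red, overexpression). Control 2 is highest on both axes, at 540 CPM of markers and 179 CPM of C1q, and overexpression library 1 follows at 500 and 113 CPM.

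C1s, the protease that cuts C4 and C2, was encoded by transcripts that were more abundant in each overexpression library than in any control. C1s1 was at 3.07, 2.13 and 3.05 CPM in controls 1 to 3 and at 5.74, 8.63 and 3.84 CPM in overexpression libraries 1 to 3. Overexpression library 2 was highest, and library 3 lay closest to the controls. The log2 fold change was 1.14 ± 0.35 (SE), with an unadjusted p of 0.0115 and an adjusted p of 0.822 by edgeR. Without overexpression library 2 it was 0.80, with an unadjusted p of 0.0557 by edgeR.

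C1ra, which encodes the protease that activates C1s, overlapped between the groups. It was at 4.11, 4.66 and 2.75 CPM in controls 1 to 3 and at 4.80, 9.16 and 3.32 CPM in overexpression libraries 1 to 3. Only overexpression library 2 lay well outside the control range, and library 1 exceeded the highest control by little. The log2 fold change was 0.58 ± 0.41 (SE), and 0.08 without overexpression library 2. C1s1 stood at 0.688, 0.420 and 1.01 times C1ra in controls 1 to 3 and at 1.13, 0.865 and 1.06 times C1ra in overexpression, both in TPM.

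The summed endothelial and leukocyte markers were also highest in overexpression library 2, the library with the most C1ra and C1s1, but not each marker was. The 8 endothelial markers, led in TPM by Ly6c1 and none of them at 0, summed to 394 CPM there, to 266 and 294 CPM in the other overexpression libraries and to 214 to 239 CPM in the controls, with 6 of 8 fitted higher. Cldn5, Tek and Kdr were highest in a control. The 10 neutrophil and monocyte markers, led by S100a8, summed to 49.9 CPM there, to 14.6 and 35.6 CPM in the other overexpression libraries and to 7.002 to 8.82 CPM in the controls. Csf3r made up most of the control sums, at 6.24, 5.34 and 4.92 CPM in controls 1 to 3. All 7 markers of the list that had enough counts to be tested were fitted higher. Of all tested genes, 49.3% were. In overexpression library 2, S100a8 and S100a9 made up 16.9 and 18.2 CPM of the sum, whereas Csf3r, Ccr2, Ly6c2 and Plac8 were highest in overexpression library 1. The part of these cells in the protease levels was not tested.

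C4b, the mouse C4 gene whose product is cut by C1s on the way to C3, had the largest fold change of the 9 genes with all libraries in edgeR. Without overexpression library 1 that of C1s1 (1.18 on the log2 scale) exceeded it, and in limma voom that of C3 (1.79). It was at 11.9, 11.0 and 26.2 CPM in controls 1 to 3 and at 82.2, 31.6 and 41.2 CPM in overexpression libraries 1 to 3. Every overexpression library lay above every control, but control 3 was close to overexpression library 2. The means were 16.4 ± 8.51 CPM and 51.7 ± 26.8 CPM (SD, n = 3), a 3.16-fold difference, with a log2 fold change of 1.66 ± 0.45 (SE) and an unadjusted p of 0.00581 in edgeR. The adjusted p was 0.822 in edgeR. DESeq2 called C4b, with an adjusted p of 0.0458, as it did 0.248% of the genes to which it gave an adjusted p.

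That call did not hold without single libraries. The DESeq2 adjusted p of C4b was 0.796 without overexpression library 1, 0.0739 and 0.119 without overexpression libraries 2 and 3, 0.176 and 0.784 without controls 1 and 2, and 0.000185 without control 3, the control with the highest C4b. The direction was kept in each of these fits, with log2 fold changes from 1.16 without overexpression library 1 to 2.19 without control 3. In edgeR, leaving out single libraries gave C4b log2 fold changes from 1.16 to 2.18.

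C4a, the near copy of C4b that RefSeq lists as a transcribed pseudogene, was also higher in each overexpression library. It was at 2.98, 2.70 and 2.83 CPM in controls 1 to 3 and at 5.10, 5.17 and 4.79 CPM in overexpression libraries 1 to 3. Its spread within each group was far smaller than that of C4b. The log2 fold change was 0.82 ± 0.24 (SE), with an unadjusted p of 0.00805 and an adjusted p of 0.822 in edgeR. Of the counts assigned to either copy, C4a took 20.0% (95% Wilson interval 17.0 to 23.3%), 19.7% (17.0 to 22.7%) and 9.75% (8.34 to 11.4%) in controls 1 to 3. In overexpression libraries 1 to 3 it took 5.84% (5.22 to 6.54%), 14.05% (12.7 to 15.5%) and 10.4% (9.41 to 11.5%). These intervals cover counting error only. The share ran lowest where C4b was highest, which follows from its definition, since C4b is in the denominator and C4a varied little within each group. With the counts of both copies summed, the log2 fold change of C4 was 1.56 and its unadjusted p 0.00437 by edgeR.

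C3, the component on which all arms of the cascade converge, was near the limit of detection. It had 0, 20 and 42 counts in controls 1 to 3 and 77, 26 and 29 counts in overexpression libraries 1 to 3. The 0 in control 1 allows up to 0.0704 CPM, and the other values were 0.367 and 0.831 CPM in controls 2 and 3 and 1.37, 0.418 and 0.406 CPM in overexpression libraries 1 to 3. Overexpression libraries 2 and 3 lay below control 3. The log2 fold change was 0.85 ± 1.04 (SE), and 0.04 without overexpression library 1 or 1.93 without control 3. No difference could be told from the spread among libraries.

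Serping1, which encodes C1 inhibitor, was high in overexpression libraries 1 and 2 and low in library 3. It was at 1.83, 1.54 and 2.14 CPM in controls 1 to 3 and at 5.23, 3.28 and 1.41 CPM in overexpression libraries 1 to 3. The value of overexpression library 3 was below every control. The log2 fold change was 0.85 ± 0.46 (SE), with an unadjusted p of 0.105 by edgeR, and it was 0.36 without overexpression library 1. Without overexpression library 3 it was 1.21, with an unadjusted p of 0.0134 by edgeR.

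C3ar1, the receptor for the C3a fragment, which is carried by microglia and other myeloid cells, also overlapped between the groups. It was at 3.75, 2.57 and 2.04 CPM in controls 1 to 3 and at 5.37, 2.41 and 3.22 CPM in overexpression libraries 1 to 3. Overexpression library 1 was highest and control 3 lowest. The log2 fold change was 0.40 ± 0.39 (SE), and 0.02 without overexpression library 1.

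**Figure D4:**
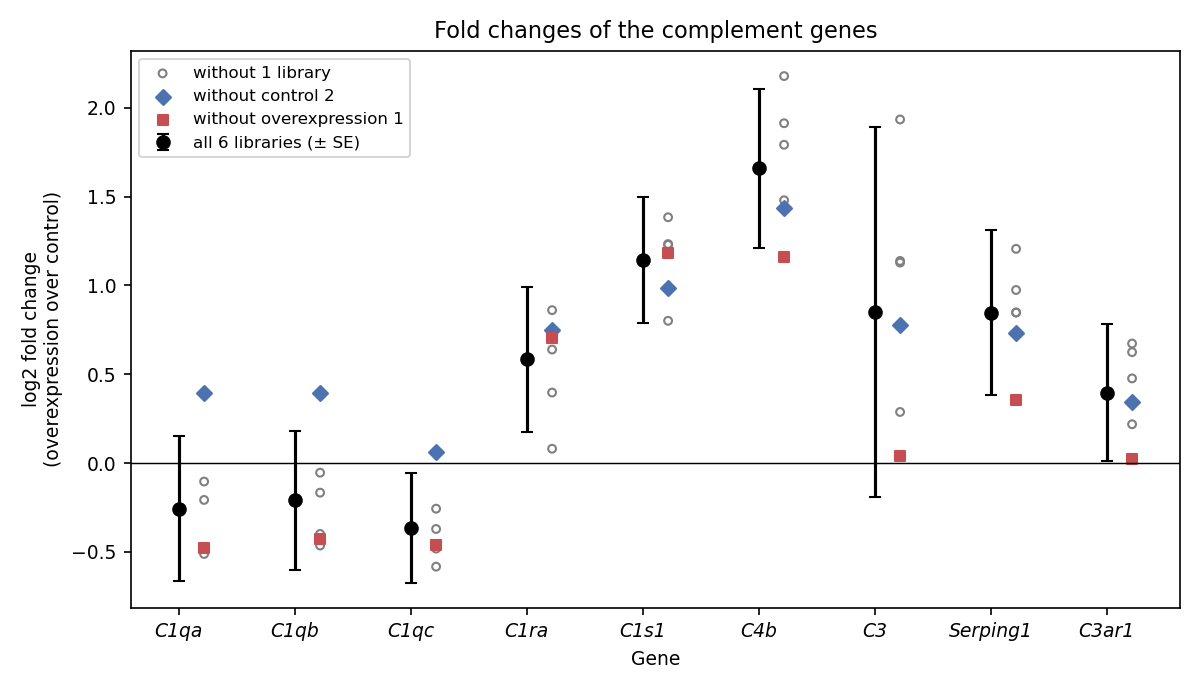
Fitted log2 fold changes of the 9 genes (overexpression over control, edgeR), with all 6 libraries as black points with SE bars and the values without single libraries beside them as open circles, a blue diamond for the fit without control 2 and a red square for the fit without overexpression library 1. The C1q genes move above 0 without control 2, and C3 and C3ar1 fall to 0.04 and 0.02 without overexpression library 1, while C4b stays between 1.16 and 2.18.

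Overexpression library 1 thus held the highest value of C4b, C3, Serping1 and C3ar1, and it was also the library with the most Wnt3. Interferon-stimulated genes were highest in the same library. Their 14 listed genes, all tested, summed to 215 CPM in overexpression library 1, to 64.7 and 74.0 CPM in libraries 2 and 3 and to 66.2 to 85.6 CPM in the controls. All 14 were fitted higher, against 49.3% of all tested genes, but only overexpression library 1 had a sum above the control range. The 6 border macrophage markers summed to 14.1 CPM in overexpression library 1, against 4.79 to 8.27 CPM in the other libraries. Pf4 and Ms4a7 of that list were highest in control 2, and Lyve1 in overexpression library 2. The 9 meningeal fibroblast markers, led in TPM by Pdgfra, summed to 155 CPM in overexpression library 1, against 64.5 to 150 CPM elsewhere. Pdgfra alone made up 61.6 CPM of the sum in overexpression library 1 and 81.5 CPM in control 3. The sum thus rests in large part on that gene, and whether its transcripts came from fibroblasts was not tested. Pdgfra and Igf2 were highest in control 3, at 81.5 and 35.3 CPM, and the other fibroblast markers in overexpression library 1. The 8 astrocyte markers summed to 6250, 5758 and 6305 CPM in overexpression libraries 1 to 3 and to 6496, 3832 and 7232 CPM in controls 1 to 3, a sum led by Slc1a2 (4144 CPM in overexpression library 1). Gfap, the intermediate filament of astrocytes and the 1 marker of that list with an unadjusted p under 0.05, was highest in overexpression library 1. It was at 252, 122 and 198 CPM in overexpression libraries 1 to 3 and at 77.5, 126 and 139 CPM in controls 1 to 3, with a log2 fold change of 0.74 ± 0.31 (SE). Gfap was singled out after its values were seen. The part of the Wnt3 level, of these cells and of the interferon-stimulated genes in the complement levels was not tested.

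Genes with the most alike pattern were sought for each role over the 6 libraries, by the root mean square difference of log2 CPM centred on the control mean, among 13985 named genes with a mean TPM of at least 1. For the C1q subunits these were Pgam2, Rnaset2a and Lst1, which differed from the C1q mean by 0.09 log2 units each. For the proteases they were Il4ra (0.12), Rhoj (0.18) and Birc3 (0.19). For C3 and C4b together the nearest genes, Irgm2, Cd44 and Glp2r, were further away, at 0.29 log2 units each. The median over all candidates was also largest for this role, at 0.93. C3, near the limit of detection, weighs as much as C4b in that pattern, so it does not describe C4b alone. Serping1 was nearest to F13a1 (0.14), Zfp185 (0.17) and Slc6a13 (0.18), and C3ar1 to Nat8f5 (0.11), Arhgap4 (0.13) and Clec4a3 (0.15). F13a1 is also on the border macrophage list and Slc6a13 on the meningeal fibroblast list. The median difference over all candidates was 0.51 to 0.93 log2 units, depending on the role, and with 6 libraries near matches are found for any pattern.

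The rest of the pathway was read from a list of 46 other complement genes, of which 31 had enough counts to be tested. None passed over all genes in edgeR (0%). Of the 31, 25 were fitted higher and 6 lower, and their median was 0.24 on the log2 scale. Of all tested genes, 49.3% were fitted higher. An unadjusted p under 0.05 was reached by 4 of the 31, all higher, among them C4a, C5ar2 and Itgax, and by 1.86% of all tested genes in that direction. Mbl1, Mbl2, Cfd, C6 and C9 had no count in any library.

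**Figure D5:**
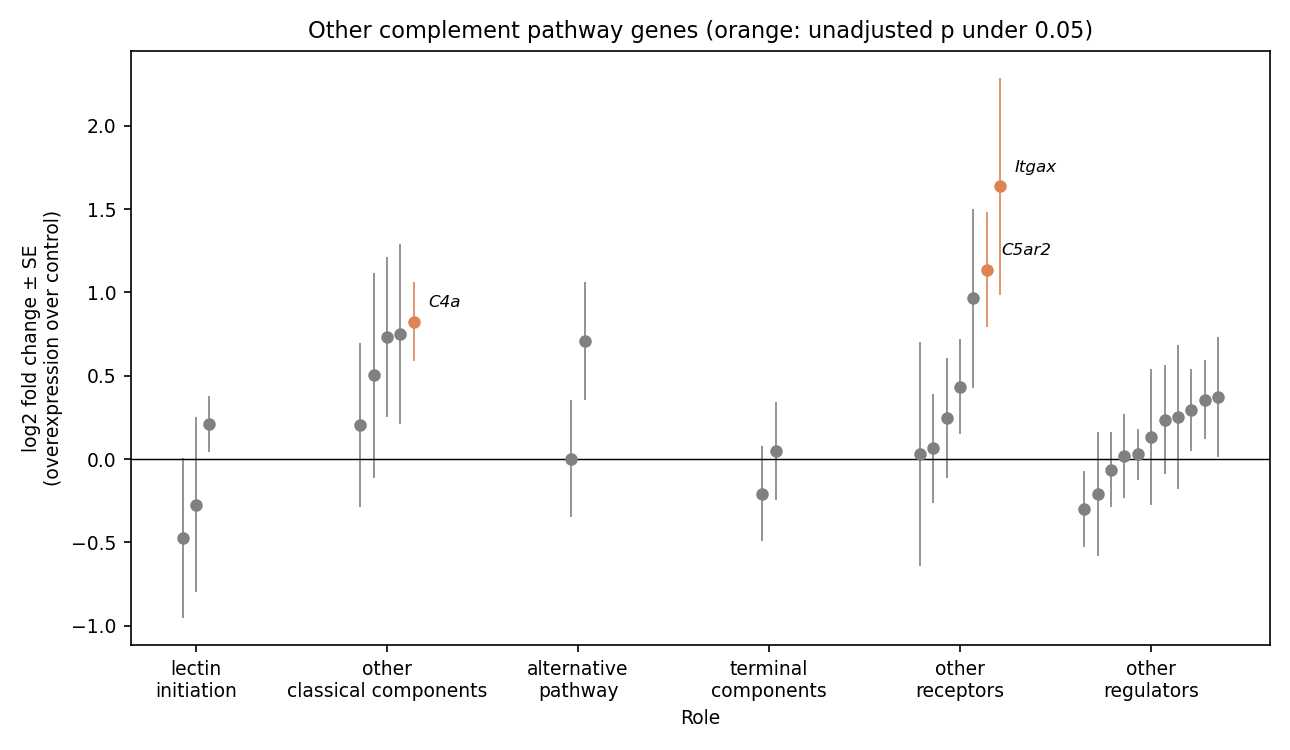
Log2 fold changes with SE (overexpression over control, edgeR) of 30 of the 31 tested genes among 46 other complement genes, grouped by role and sorted within each. Orange points are the 3 plotted genes with an unadjusted p under 0.05, all above 0, and the 5 other classical components and 7 other receptors are all fitted above 0.

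All 5 of the other classical components were fitted higher, from 0.21 to 0.82 on the log2 scale, C4a at the top. Among them, C4a, C1rb and C1s2 are near copies of C4b, C1ra and C1s1, so their counts cannot be fully separated from those of the members. Among receptors, 7 of 8 were tested and all were fitted higher. C5ar2, a receptor for the C5a fragment, was at 1.03, 0.605 and 0.791 CPM in controls 1 to 3 and at 1.75, 1.85 and 1.74 CPM in overexpression libraries 1 to 3, with groups that did not overlap. Its log2 fold change was 1.14 ± 0.34 (SE), with an unadjusted p of 0.0106 and an adjusted p of 0.822 in edgeR. Itgax, a subunit of complement receptor 4, was at 0.282, 0.440 and 0.455 CPM in the controls and at 2.26, 0.369 and 1.06 CPM in overexpression, where library 2 lay within the control range. Itgam, a subunit of complement receptor 3 and the receptor gene with the highest mean TPM, had a log2 fold change of 0.06 ± 0.33 (SE), which turned to -0.16 without control 2 and to -0.25 without overexpression library 1.

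Among 12 tested regulators, 9 were fitted higher and 3 lower. Clu, which encodes clusterin, had the highest mean TPM of the regulators and a log2 fold change of -0.30 ± 0.23 (SE), which was -0.029 without control 2 and -0.04 on log2(TPM + 1).

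The alternative, lectin and terminal arms were mostly at low levels. Cfp and Masp1 were exceptions, at 13.3 and 12.1 TPM on average over all libraries. Cfp, the properdin gene, averaged 9.59 ± 2.27 CPM over the controls and 9.60 ± 4.52 CPM over the overexpression libraries (SD, n = 3). Cfb, the other tested gene of the alternative arm, was at 2.04, 2.22 and 2.55 CPM in controls 1 to 3. It was at 3.91, 5.04 and 2.20 CPM in overexpression libraries 1 to 3, with groups that overlapped. Its log2 fold change was 0.71 ± 0.35 (SE), with an unadjusted p of 0.0797 in edgeR. Masp1, which encodes a lectin pathway protease, averaged 15.6 ± 0.90 CPM over the controls and 18.0 ± 0.30 CPM over the overexpression libraries (SD, n = 3). Its groups did not overlap, and the fitted log2 difference was 0.21 ± 0.17 (SE). Of the 7 terminal components 2 were tested, with C8g, the one with the higher mean TPM, at a log2 fold change of 0.05 ± 0.30 (SE).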

How the data were processed

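The authors deposited 1 table of whole-number counts per gene and 1 of TPM, with a column per library, matched to its sample by the library name in the labels. Per the submitters' processing notes, the tools were STAR 2.5.3a, FastQC 0.11.5, DESeq 1.16.1 and Cuffnorm, with mm10 and no roles stated. Which program and annotation gave the counts, and whether strand was used, is not given in the sources used here. Deposited TPM were used for levels between genes.

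Overexpression was compared with control on the deposited counts with edgeR 4.0.16 (quasi-likelihood test, R 4.3.3), TMM factors, filterByExpr (minimum count 10) and group as the only term, with Benjamini-Hochberg adjustment at 0.05 over all 22360 tested genes. SE is the absolute log2 fold change over the root of F. A permutation test of 3 against 3 cannot go below a two-sided p of 0.1 and was not used. For pattern likeness, 0.5 was added to CPM. A count of 0 was given a limit of 3 counts. The test was tried on simulated counts.

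The members, lists and tests were chosen with earlier results of these data known. 1 pathway gene is counted but not reported here. Named were all members, Wnt3, pathway genes with an unadjusted p under 0.05 or the highest mean TPM of their role, leading markers and the 3 genes most alike per role. Gm16567 and the copies C1rb and C1s2 were named for their position or sequence. Gfap, Cfb and single endothelial, leukocyte, border macrophage and fibroblast markers were named after their values were seen. The lists were 6 roles of other complement genes and 13 marker lists. Alternatives were other factors and filters, DESeq2 1.42.0, limma 3.58.1 (voom, and trend on log2 TPM), a replicate block, summed copies and the omission of each library. DESeq2 without single libraries was added after seeing the data. Pericyte, choroid plexus, red blood cell and neuron markers summed to 135 to 221, 2.60 to 7.78, 119 to 722 and 5039 to 6794 CPM over the libraries.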

Additional observations from a re-analysis of the deposited data

How the results depend on the processing

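Leaving out single libraries gave 0 members with an adjusted p under 0.05, 1 to 3 with an unadjusted p under 0.05 and a members' median of 0.039 to 0.86 (log2). The other pathway genes gave 2 to 5 with an unadjusted p under 0.05 and a median of 0.18 to 0.33. The ranges were -0.51 to 0.39 for C1qa, -0.46 to 0.39 for C1qb, -0.58 to 0.065 for C1qc, -0.46 to 0.22 for Cfp, -0.059 to 0.16 for C8g and -0.25 to 0.31 for Itgam. DESeq2 called 1 member (C4b) and 64 genes in all. The pathway median was 0.33 with voom. On log2(TPM + 1) the members' median was 0.37, the pathway median 0.33, C1qa 0.11 and C1qb 0.13. With a mean TPM of at least 0.5 the last 3 were 0.34, 0.11 and 0.13, and on log2(TPM + 0.1) they were 0.53, 0.11 and 0.14. Cfp was -0.012 with upper quartile factors, -0.013 with at least 1 CPM in 3 libraries and -0.059 with voom. C3 had no value under the filters of 1 CPM and of mean TPM 0.5. The cause of these changes was not tested. C4b and C1s1 were higher in all alternatives run.

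Libraries with the same number did not deviate together (correlations of 0.08, -0.02 and -0.03 for numbers 1 to 3). The labels do not say whether the numbers pair libraries, and deviations within 3 libraries per group cannot decide it. No library correlated best with the one of its own number. With the replicate number as a block in edgeR, 2 other pathway genes had an unadjusted p under 0.05 and Cfp was at -0.067.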
